A study of Homo sapiens with 16 samples.

Results

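The S100 calcium-binding protein family was described here by 10 genes (S100A2, S100A4, S100A6, S100A7, S100A8, S100A9, S100A10, S100A11, S100A14 and S100A16) of the 26475 genes counted by RNA-seq in MCF10A cells. Members were taken by gene symbol, and the family was selected on a result of these data, a lower S100A14 level with both inhibitors. MCF10A is an established, non-tumorigenic human mammary epithelial line, a single line grown as a monolayer in medium with insulin, EGF, hydrocortisone, cholera toxin and horse serum, which all groups shared. The 16 libraries formed 4 groups of 4. Control cells received DMSO, 2 changes of medium and no collagen. Collagen cells received DMSO for 48 h and 0.05 mg/mL collagen I over the last 24 h. The DDR1i and RUNXi groups received the same collagen, with 2 µM DDR1-IN-1, an inhibitor of the collagen receptor kinase DDR1, or 5 µM AI-10-104, an inhibitor of RUNX transcription factors, over the 48 h. No group received an inhibitor without collagen.

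S100 proteins are small proteins that bind calcium through EF-hand loops, change shape when they do, and act by docking on partner proteins. Most form dimers. S100A8 and S100A9 pair as calprotectin, a metal-binding antimicrobial complex released by neutrophils and by stressed epithelium. S100A10, which no longer binds calcium, and S100A11 attach to annexin A2 and annexin A1 at membranes, S100A4 binds nonmuscle myosin, and S100A6 binds the calcyclin-binding protein CACYBP. In squamous and basal epithelium S100A2 and S100A14 are abundant, and S100A7 (psoriasin) marks inflamed or differentiating epidermis.

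All 10 members lay on chromosome 1, in the 1q21 cluster, between positions 151955391 and 153604515 of GRCh37, a span of 1.65 Mb that held 64 of the counted genes. Canonical transcripts of the members were 408 to 1172 bases long, against a median of 3221 bases over the 13171 tested genes with a known length. S100A14 (ENSG00000189334) occupied positions 153586731 to 153589462 on the minus strand with 4 exons, next to S100A16 at 153579362 to 153585621. S100A8 (153362508 to 153363549, minus strand) and S100A9 (153330330 to 153333499, plus strand) lay apart from them in the same cluster. The counts are per gene, so that no exon or UTR was measured by itself. The S100A3 gene lies inside the annotated span of S100A4 on the same strand. The counting tool and annotation were not stated, so reads of this pair could be split between them.

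The 250 bases before the RefSeq start (GRCh38.p14) are shown for 3 members, because one treatment targeted RUNX factors, which bind the core letters TGTGGT. S100A14 is the gene on which the family was chosen, and S100A9 and S100A11 are the members with a single window that held those letters. Capitals mark TGTGGT, read as ACCACA on the other strand, and the TATA box letters TATAAA. The windows are chr1:153616326-153616575 (minus strand), chr1:153357604-153357853 (plus strand) and chr1:152037005-152037254 (minus strand), in that order.
S100A14: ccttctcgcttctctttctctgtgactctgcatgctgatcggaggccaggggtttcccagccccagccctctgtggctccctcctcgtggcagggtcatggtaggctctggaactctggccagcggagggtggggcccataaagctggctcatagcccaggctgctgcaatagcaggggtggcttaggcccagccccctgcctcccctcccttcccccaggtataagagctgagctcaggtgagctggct
S100A9: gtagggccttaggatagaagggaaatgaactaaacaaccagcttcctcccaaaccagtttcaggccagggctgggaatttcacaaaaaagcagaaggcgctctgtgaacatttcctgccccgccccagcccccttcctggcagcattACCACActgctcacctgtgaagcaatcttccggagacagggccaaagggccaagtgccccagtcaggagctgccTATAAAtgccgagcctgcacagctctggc
S100A11: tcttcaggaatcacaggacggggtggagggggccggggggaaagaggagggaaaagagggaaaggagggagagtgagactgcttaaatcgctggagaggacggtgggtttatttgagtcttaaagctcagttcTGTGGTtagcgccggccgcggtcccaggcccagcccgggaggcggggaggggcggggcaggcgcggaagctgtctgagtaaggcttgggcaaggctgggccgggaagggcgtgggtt
S100A14 held neither set of letters, while S100A9 held ACCACA at positions -103 to -98 and TATAAA at -29 to -24 from its start. TGTGGT was searched on both strands in the 14 windows of the 10 members and was present in windows of 3 members (S100A2, S100A9 and S100A11), and in 10.98% of the 35116 windows of the same length over all genes. TGCGGT, the other RUNX core, was present in S100A4 (5.843% of all windows), the AP-1 letters TGANTCA in S100A2 (6.573%), and TATAAA in S100A4, S100A7, S100A8 and S100A9 (10.72%). These letters describe the windows and are not evidence of a bound site.

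Library totals ranged from 12184619 to 44332378 counts, and the 10 members took 0.855% to 1.42% of them. Collagen replicate 3 had been left out by the authors as an outlier, and it was left out of every test here, with values that include it given beside the results it changed. The epithelial label held: all 7 epithelial markers (KRT5, KRT14, KRT6A, TP63, CDH1, EPCAM and KRT18) had counts in every group, at a summed 11520 to 21273 normalized CPM (counts scaled by TMM to a common library total). Of the 5 myeloid markers, LYZ and FCN1 were at 0 in every library and PTPRC had a single count in all, and the summed level, almost all CD14, did not pass 18.7 CPM. Fibroblast and endothelial markers summed to at most 32.9 and 2.40 CPM. The labels do not say whether replicates came from separate cultures, so that p-values measure the spread between these samples, which may be technical, and in bulk RNA fewer expressing cells and less RNA per cell cannot be told apart.

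Per kb of transcript, the family spanned levels that differed by orders of magnitude in control cells. S100A2 was the most abundant at 4661 ± 721 normalized CPM per kb (SD, n = 4), followed by S100A6 at 3463 ± 377. S100A11 (1411 ± 117), S100A10 (1034 ± 82.0), S100A16 (932 ± 125) and S100A14 (818 ± 82.4) formed a middle tier. The libraries of S100A2 and S100A6, of S100A6 and S100A11, and of S100A11 and S100A10 did not overlap, whereas those of S100A10 and S100A16 and of S100A16 and S100A14 did. S100A9 (65.0 ± 6.04), S100A4 (56.9 ± 20.5) and S100A8 (29.3 ± 9.80) were lower than S100A14 in every library, and each overlapped with its neighbour in this order. S100A7 was barely detected, with 228 counts over all libraries and 0 counts in 7 of the 16. A count of 0 allows up to 3 counts, a level of 0.113 to 0.246 CPM in those libraries, by counting error alone.

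**Figure D1:**
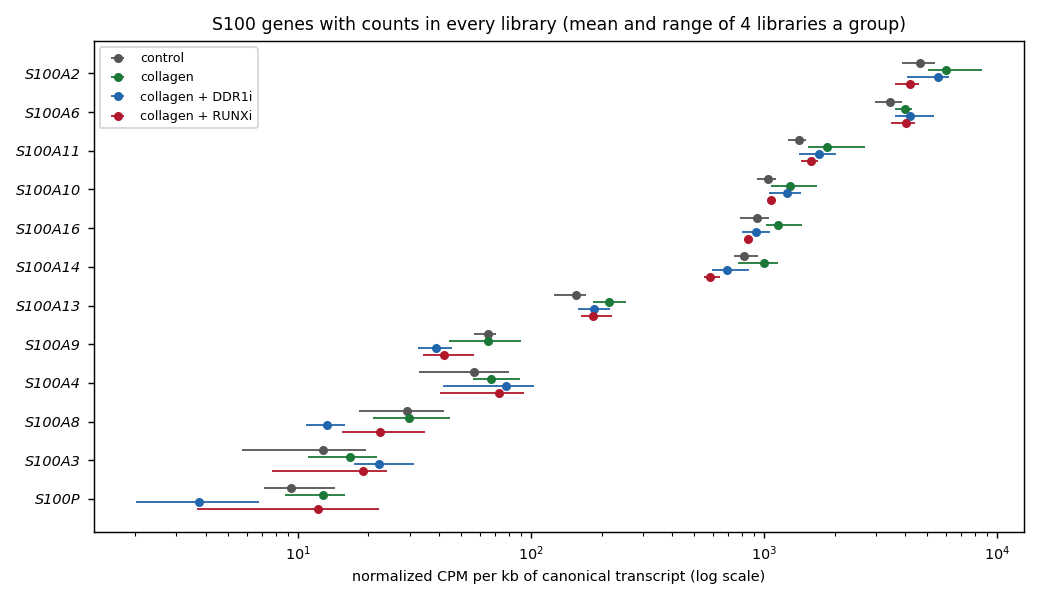
Levels of the S100 genes that had counts in every library, as normalized CPM per kb of canonical transcript on a log axis. Points are means and lines the range of the 4 libraries of a group, with collagen replicate 3 included, and S100A2 and S100A6 sit highest and S100P lowest.

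S100A14, an epithelial member with a degenerate calcium-binding loop, was the gene on which the family was chosen. Control replicates 1 to 4 had 985, 827, 854 and 783 normalized CPM, and the 3 collagen libraries used (replicates 1, 2 and 4) had 1202, 1117 and 1075. With DDR1i it was 905, 683, 700 and 629, and with RUNXi 677, 619, 584 and 579. All 4 libraries of either inhibitor therefore lay below all 3 collagen libraries, and the RUNXi libraries lay below all control libraries as well, while DDR1i replicate 1 lay within the control range. Collagen replicate 3, at 814, fell inside the DDR1i range and above every RUNXi library. Group means were 862 ± 86.9 (SD, n = 4) in control, 1131 ± 64.4 (n = 3) with collagen, 729 ± 121 (n = 4) with DDR1i and 615 ± 44.9 (n = 4) with RUNXi.

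In the comparisons used for the choice, S100A14 was 0.644-fold of the collagen level with DDR1i (log2 fold change -0.64 ± 0.12, SE) and 0.541-fold with RUNXi (-0.89 ± 0.12). These values were used to select the family, so they are given as a description, without a p-value. With collagen replicate 3 included they were -0.54 and -0.79. Against control, where the same inhibitor libraries are set beside libraries the choice did not use, the log2 fold change of S100A14 was -0.49 ± 0.11 with RUNXi and -0.23 ± 0.11 with DDR1i. The collagen libraries, likewise used in the choice, stood 0.40 ± 0.12 above control on the log2 scale.

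**Figure D2:**
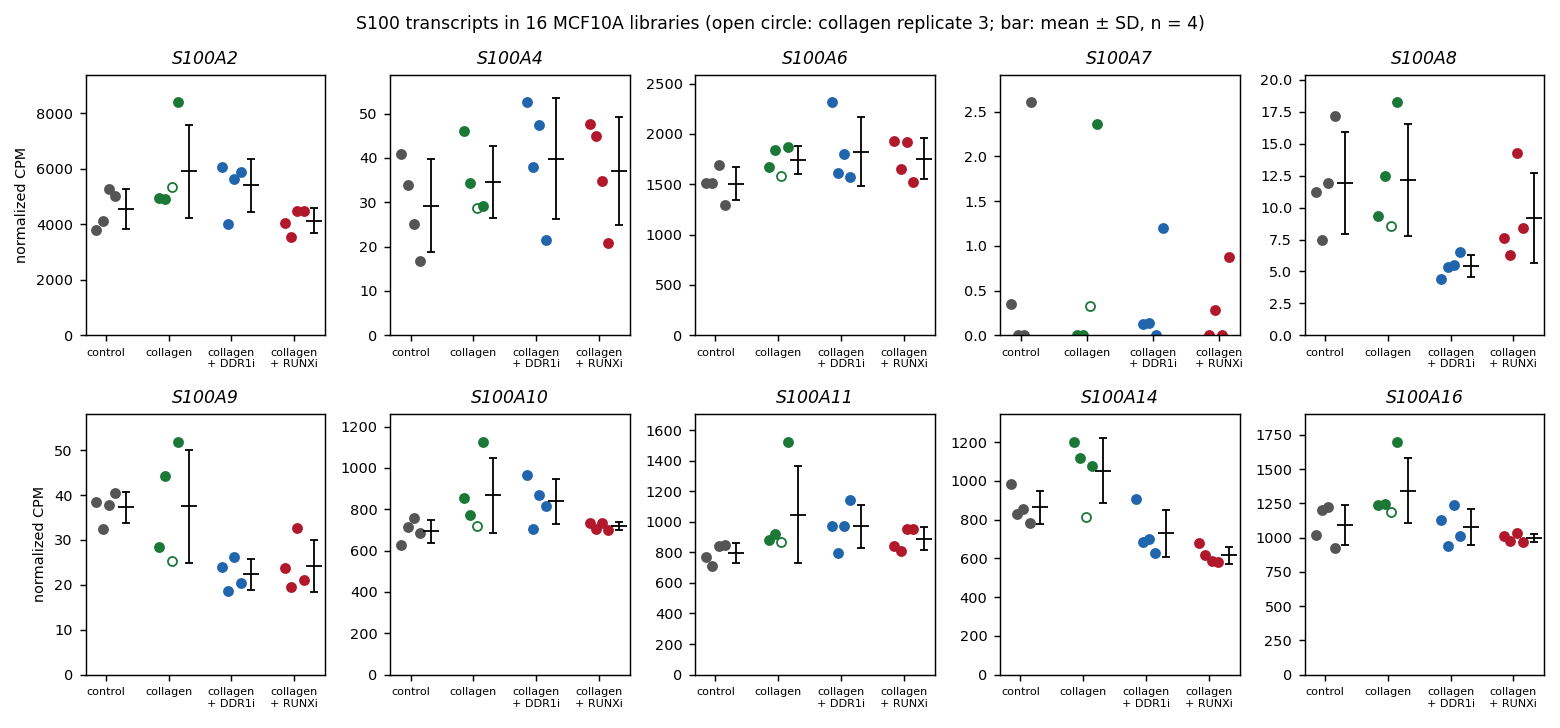
Normalized CPM of each S100 gene in the 16 libraries, by group, with the mean ± SD of 4 libraries beside the points (not drawn for S100A7, which was at 0 in 7 libraries) and collagen replicate 3 as an open circle. S100A14 lies below all control libraries with RUNXi, S100A8 and S100A9 do so with DDR1i, and collagen replicate 4 stands above the rest of its group for S100A2, S100A11 and S100A16.

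S100A8, the calprotectin subunit that needs S100A9 for stability, was at 11.2, 7.43, 11.96 and 17.1 normalized CPM in the control libraries and at 9.37, 12.5 and 18.2 in the collagen libraries (8.54 in replicate 3). With DDR1i it was at 4.41, 5.34, 5.47 and 6.50, and with RUNXi at 7.63, 6.28, 14.3 and 8.44. Every DDR1i library lay below every control and every collagen library, replicate 3 included. The RUNXi libraries overlapped all other groups. These levels rest on 93 to 593 counts per library.

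S100A9, the other subunit, was at 38.5, 32.4, 37.7 and 40.5 normalized CPM in control and at 28.4, 44.2 and 51.9 with collagen (25.3 in replicate 3). It was at 23.9, 18.7, 26.3 and 20.5 with DDR1i and at 23.8, 19.6, 32.6 and 21.1 with RUNXi. DDR1i libraries lay below all controls, and RUNXi libraries did so except for replicate 3, which lay within the control range. The ratio of S100A9 to S100A8 CPM was 2.36 to 4.35 in control, 2.84 to 3.54 with collagen, 3.16 to 5.42 with DDR1i and 2.28 to 3.12 with RUNXi. The ranges of the ratio with DDR1i and with RUNXi did not overlap, and those of every other pair of groups did. That gap was narrow, from 3.12 to 3.16, and S100A8 had as few as 103 counts in a DDR1i library. It was not tested.

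Against control, the log2 fold change with DDR1i was -1.14 ± 0.31 (SE) for S100A8, a level 0.455-fold of control, and -0.73 ± 0.18 for S100A9, 0.602-fold. Neither passed the edgeR quasi-likelihood test after Benjamini-Hochberg adjustment over 13213 genes, with adjusted p = 0.263 for S100A8 and 0.148 for S100A9, although both were lower in 4 of 4 DDR1i libraries. For S100A9 the call depended on the method, with an adjusted p of 0.0297 by DESeq2 and 0.0334 by edgeR with the length trend removed. With RUNXi the log2 fold change from control was -0.39 ± 0.31 for S100A8 (edgeR adjusted p = 0.876) and -0.62 ± 0.18 for S100A9 (adjusted p = 0.224). Both inhibitor groups enter the comparisons on which the family was chosen, so these tests of the same libraries are not a second set of samples.

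Myeloid markers, summed, ranged from 6.65 to 18.7 CPM in control, 5.07 to 14.2 with collagen, 6.92 to 10.5 with DDR1i and 0.328 to 6.72 with RUNXi, with 3 of the 5 markers counted in control and 2 in each other group. Their range was lowest with RUNXi, and the median of S100A8 was lowest with DDR1i. Summed epithelial markers were 11520 to 14935 CPM with DDR1i and 15747 to 18935 in control. Of the 7 markers, only KRT14, a basal keratin, was called with DDR1i (log2 fold change -0.79 ± 0.10 from control, edgeR adjusted p = 0.000616). KRT5, KRT6A and EPCAM were at -0.26 each, TP63 at -0.02, CDH1 at 0.03 and KRT18 at 0.19. The part of the myeloid and epithelial markers in the calprotectin values was not tested.

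The other abundant members were read together, since their differences were small. S100A16, the S100A14 neighbour, was at 1240, 1246 and 1699 normalized CPM in those collagen libraries and at 939 to 1238 with DDR1i and 967 to 1034 with RUNXi, against 923 to 1226 in control. Inhibitor libraries lay below those 3 collagen libraries, and all but DDR1i replicate 3 lay within the control range. The RUNXi libraries also lay below collagen replicate 3 (1187), which DDR1i replicate 3 exceeded.

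S100A2, a nuclear member of basal epithelium, was at 4947, 4929 and 8396 normalized CPM with collagen, at 4008 to 6067 with DDR1i and at 3538 to 4486 with RUNXi, and control libraries spanned 3813 to 5289. RUNXi libraries lay below every collagen library, replicate 3 (5354) included, and collagen replicate 4 was the highest of all 16. The annexin partners S100A10 and S100A11 ranged from 625 to 1126 and from 711 to 1525, both highest in collagen replicate 4. S100A6 ranged from 1290 to 2313 and S100A4 from 16.8 to 52.5, with every pair of groups overlapping for both genes.

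**Figure D3:**
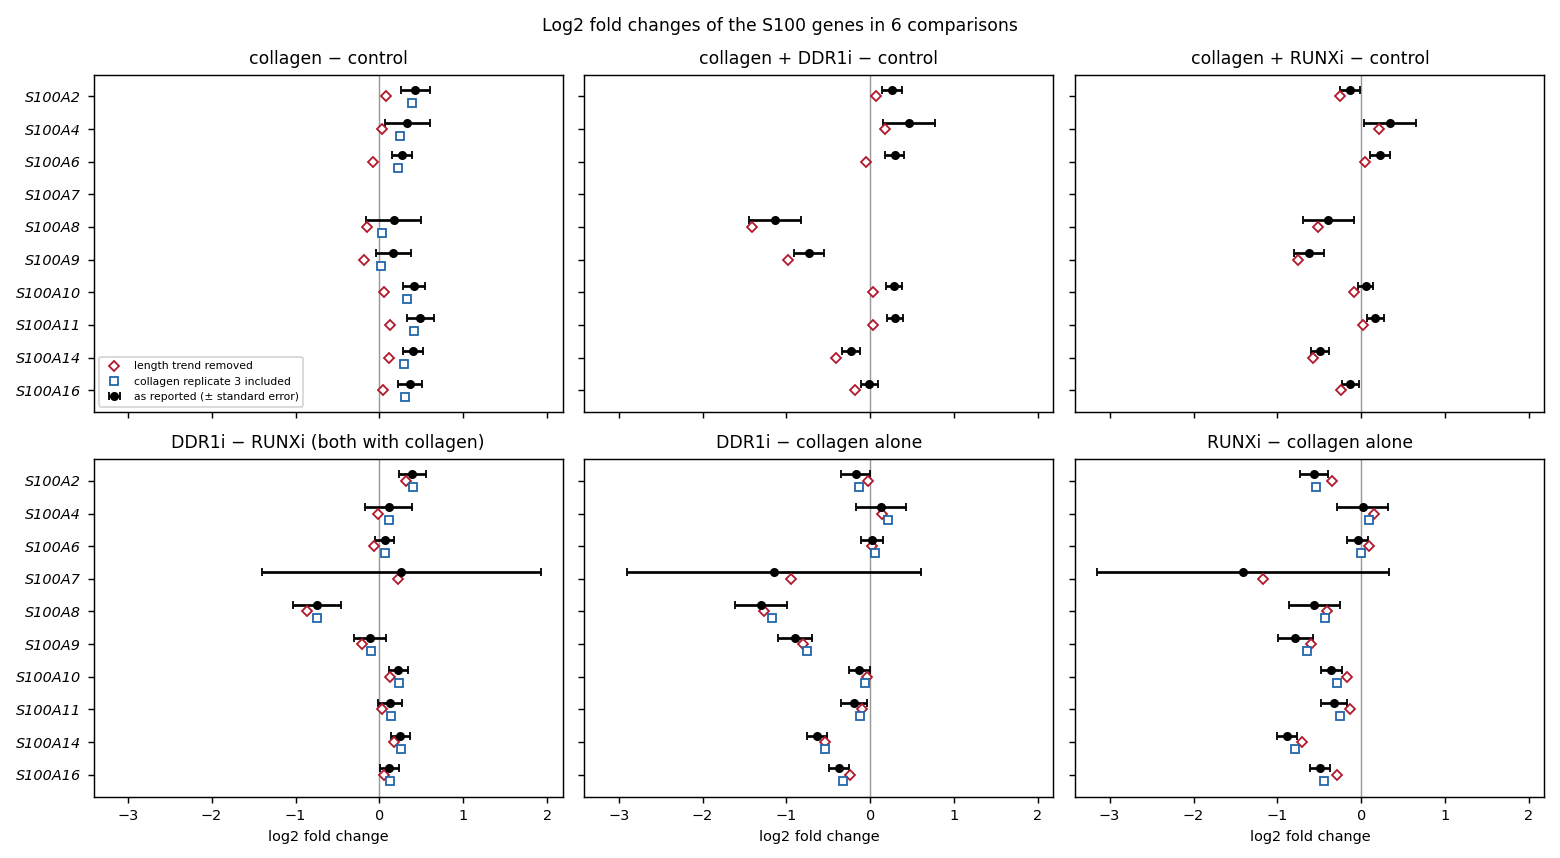
Log2 fold change of each S100 gene in 6 comparisons, with the standard error as a bar (black), after removal of the trend with transcript length (red diamonds) and with collagen replicate 3 included (blue squares, where that group enters). Against control, S100A8 is lowest with DDR1i (-1.14) and S100A9 with RUNXi (-0.62). The collagen values move to near 0 once the length trend is removed, from a median of 0.36 to 0.04, where the median of all genes is -0.06. S100A7 passed the filter on low counts in 3 of the 6 comparisons.

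Collagen alone was compared with control to ask what the matrix signal did to the family without an inhibitor. Of the 9 members that passed the filter on low counts, 0 passed edgeR's quasi-likelihood test, as did 0% of all 13092 genes tested. At an unadjusted p under 0.05 there were 6 members and 1754 genes, and DESeq2 called 3 members (S100A10, S100A11 and S100A14) and 415 genes. The same collagen libraries were part of the choice, which favoured a high S100A14 in them, so its call is not independent support. All 9 members had a fold change above 0, with a median of 0.36 on the log2 scale against 0.01 over all genes. Without collagen replicate 4 that median was 0.20, with 2 members below 0. S100A11 had the largest (0.49 ± 0.16, SE, adjusted p = 0.211 by edgeR), followed by S100A2 (0.43 ± 0.17, adjusted p = 0.286) and S100A10 (0.41 ± 0.14, adjusted p = 0.203).

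Fold changes in this comparison followed transcript length, with Spearman's rho of -0.44 across 12771 genes, which are not independent replicates. The members are among the shortest transcripts tested. With the length trend removed, the members' median was 0.04, against -0.06 over all genes, and 3 of the 9 (S100A6, S100A8 and S100A9) were below 0. S100A14 and S100A11 were then at 0.12 and 0.12. A trend of the opposite sign accompanied both inhibitors against collagen (rho 0.38 for DDR1i and 0.36 for RUNXi), and it was small for the comparisons with control (-0.11 and -0.07) and between inhibitors (-0.03).

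The inhibitors were compared with each other to ask whether their effects on the family differed. The choice of the family did not use this contrast. It did use the libraries of both inhibitors, asking for a low S100A14 in each, so the S100A14 value here is not independent of it. Of the 10 members 0 passed edgeR's test, beside 0.568% of 13548 genes, with 3 members and 839 genes at an unadjusted p under 0.05 and 0 members called by DESeq2. S100A8 was 0.597-fold as high with DDR1i as with RUNXi (log2 fold change -0.74 ± 0.29, adjusted p = 0.585), its ranges overlapping between 6.28 and 6.50 CPM. S100A14 was 1.19-fold as high (0.25 ± 0.11, adjusted p = 0.723) and S100A2 1.31-fold (0.39 ± 0.16, adjusted p = 0.651). A p that misses the threshold does not show that the inhibitors act alike on these genes.

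For collagen with an inhibitor against control, 0 of 9 members were called with DDR1i, beside 0.212% of 13213 genes, and 1 of 9 was called lower with RUNXi, beside 0.159% lower among the same genes. With DDR1i 7 members and 678 genes had an unadjusted p under 0.05, and DESeq2 called 1 member, S100A9. These members went both ways, with S100A2, S100A6, S100A10 and S100A11 higher and S100A8, S100A9 and S100A14 lower. With RUNXi 2 members and 900 genes had an unadjusted p under 0.05, and DESeq2 called 1 member. The member called by edgeR with RUNXi was S100A14 (log2 fold change -0.49, edgeR adjusted p = 0.0480, lower in 4 of 4 libraries). Its RUNXi libraries were part of the choice, so the call is not independent support. It was lost without any 1 of 8 libraries (control replicates 1, 2 and 3, DDR1i replicate 3 and each RUNXi replicate), with an adjusted p of 0.0528 to 0.218 and log2 fold changes of -0.54 to -0.41. The members' median was 0.25 with DDR1i and -0.13 with RUNXi, against 0.01 and 0.00 over all genes. With the length trend removed these were -0.05 and -0.24, against -0.11 and -0.07 over all genes. The sign thus turned with DDR1i, while the members' median stayed above that of all genes. Leaving out 1 library at a time gave 0.05 to 0.26 with DDR1i and -0.18 to -0.07 with RUNXi. S100A7 entered most of these fits, and in those without it the medians were 0.21 to 0.26 and -0.13 to -0.09.

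The annexin-linked members kept values above control with DDR1i, at 0.28 ± 0.09 for S100A10 (edgeR adjusted p = 0.512) and 0.30 ± 0.10 for S100A11 (adjusted p = 0.548), and S100A6 stood at 0.29 ± 0.11 (adjusted p = 0.787). With the length trend removed the same genes were at 0.03, 0.03 and -0.05, where the median of all genes was -0.11. S100A4, the member that binds nonmuscle myosin, was at 0.46 ± 0.31 with DDR1i and 0.35 ± 0.31 with RUNXi on the log2 scale, and its groups overlapped. For every replicate number, which is not stated to pair samples, both inhibitor libraries lay above the control library. The library with collagen alone did so as well, so this was shared by all groups given collagen.

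Against collagen alone, 3 of 10 members were lower with DDR1i at the threshold (S100A14, S100A8 and S100A9), where 0.775% of genes were lower, and 3 of 10 were lower with RUNXi (S100A14, S100A9 and S100A16), where 1.46% of genes were. Because the family was selected on these comparisons, nothing is read from the counts. S100A8 stood at -1.30 ± 0.31 (SE) on the log2 scale with DDR1i and -0.56 ± 0.31 with RUNXi, S100A9 at -0.90 ± 0.21 and -0.79 ± 0.21, and S100A16 at -0.37 ± 0.12 and -0.49 ± 0.12. S100A6 was at 0.02 and -0.04. With collagen replicate 3 included, the counts were 0 with DDR1i and 1 (S100A14) with RUNXi, and those over all 13361 genes tested, in either direction, fell from 334 to 9 and from 549 to 60.

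Fixed pairs of S100 genes, and of S100 genes with annexin partners, were correlated over the 16 libraries as log2 normalized CPM, with 100000 permutations and adjustment over 5 pairs. S100A8 and S100A9 had Pearson's r = 0.836 (permutation p = 8.0e-05, adjusted 0.0002) and Spearman's rho = 0.826 (permutation p = 0.00015, adjusted 0.00075). Without the 2 libraries farthest from the median of S100A8, r was 0.751, and within groups, as deviations from group means, it was 0.761 (adjusted permutation p = 0.0161). S100A10 and ANXA2, its annexin partner, had r = 0.837 (permutation p = 7.0e-05, adjusted 0.0002), rho = 0.712 (permutation p = 0.00282, adjusted 0.00543) and a within-group r of 0.797 (adjusted permutation p = 0.0197), and r was 0.684 without the 2 farthest libraries. The within-group rho was 0.774 (adjusted permutation p = 0.0325) for S100A8 with S100A9 and 0.635 (adjusted permutation p = 0.0765) for S100A10 with ANXA2. Without the 2 libraries that deviated farthest, the within-group r was 0.574 and 0.618, in the same order.

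The remaining pairs did not hold in the same way. S100A11 and ANXA1 had r = 0.741 (permutation p = 0.00846, adjusted 0.0106) and rho = 0.476 (permutation p = 0.065, adjusted 0.0813), and r fell to 0.346 without collagen replicate 4 and DDR1i replicate 4, so the relation rests on them. S100A14 and S100A16, neighbours on the chromosome, had r = 0.649 (permutation p = 0.00507, adjusted 0.00845) and rho = 0.703 (permutation p = 0.00326, adjusted 0.00543), with r = 0.642 without the 2 farthest libraries. Within groups their r was 0.237 (adjusted permutation p = 0.488), so no relation among libraries of the same treatment was shown, and the differences of S100A14 between groups were part of the choice. S100A7 and S100A8 had r = 0.425 (permutation p = 0.101, adjusted 0.101) and rho = 0.169 (permutation p = 0.53, adjusted 0.53), and r = -0.193 without the 2 farthest libraries.

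**Figure D4:**
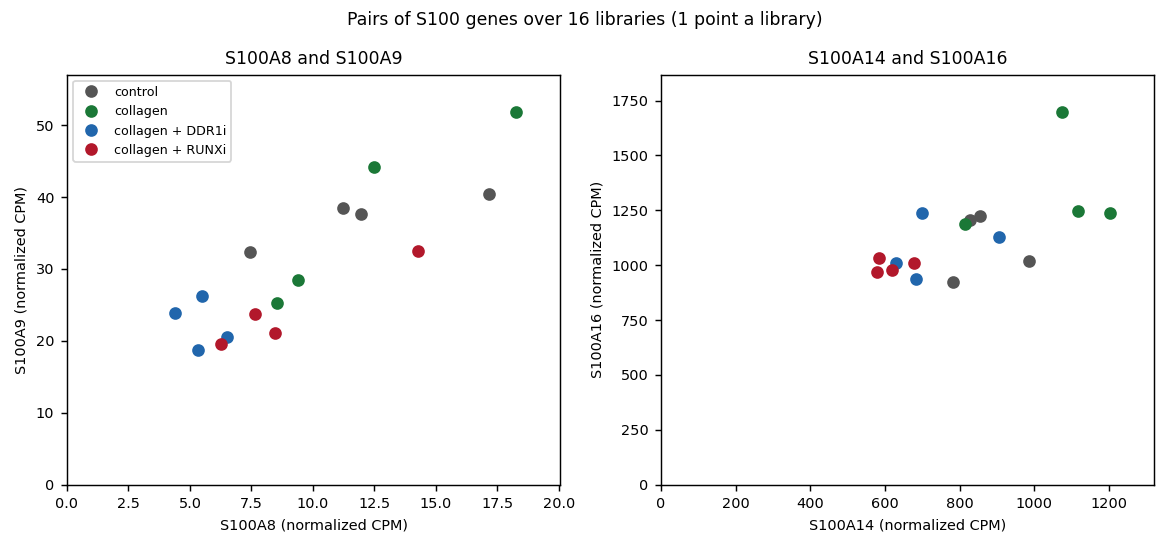
Normalized CPM of S100A8 against S100A9 and of S100A14 against S100A16, 1 point a library, coloured by group. S100A8 and S100A9 rise together over all 16 libraries (r = 0.836 on log2 values), with the DDR1i libraries at the low end of S100A8. In the RUNXi libraries S100A14 lies below all control libraries, while S100A16 lies within the control range. Within groups their r is 0.237.

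Genes outside the family whose level was most like that of S100A14 over the 16 libraries, by Pearson's r of log2 normalized CPM and as a description, were GOT1 (0.909), SSRP1 (0.905), ID1 (0.902), HOXA5 (0.892) and AQP3 (0.889). GOT1 is the cytosolic aspartate aminotransferase, SSRP1 a histone chaperone subunit, ID1 an inhibitor of basic helix-loop-helix factors, HOXA5 a homeobox factor and AQP3 a water and glycerol channel. As deviations from group means, r ranged from 0.695 for SSRP1 to 0.840 for HOXA5. None of the 5 lies on chromosome 1, and all points share their libraries with the values that chose S100A14.

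The other 11 S100 genes were mostly silent. S100A7A, S100A7L2, S100B and S100Z had 0 counts, S100G had 1 and S100A12, a neutrophil gene, had 16 over all libraries. S100A13, linked to the release of growth factors, ranged from 59.5 to 121 CPM, S100A3 from 4.24 to 23.2 and S100P from 0.946 to 10.4, and S100A1 and S100A5 stayed at or under 4.04 and 0.765 CPM. S100A1 and S100A13 overlap on opposite strands, and use of strand in counting was not stated, so reads of this pair could also be split between them. S100P, which lies on chromosome 4, was at 0.946 to 3.20 CPM with DDR1i, below the 4.12 to 7.46 of the collagen libraries and the 3.36 to 6.79 of control, while RUNXi libraries spanned 1.72 to 10.4. Its log2 fold change with DDR1i was -1.92 ± 0.49 from collagen, -1.69 ± 0.47 from RUNXi (edgeR adjusted p = 0.151) and -1.31 ± 0.54 from control (edgeR adjusted p = 0.862). It was the only other S100 gene called in any of the 6 comparisons, by the comparison with collagen.

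Of 20 partners and receptors of S100 proteins, 16 or 17 passed the filter. In the comparison of collagen with DDR1i against control, 1 was called, ANXA2, at 0.36 ± 0.08 on the log2 scale (edgeR adjusted p = 0.0484), beside 28 of the 13213 genes tested. Against collagen alone, AHNAK, the giant scaffold that binds S100A10 with annexin A2, and MYH9, the nonmuscle myosin heavy chain bound by S100A4, were called higher with both inhibitors, AHNAK by 0.98 ± 0.15 and 0.74 ± 0.15 and MYH9 by 0.89 ± 0.16 and 0.64 ± 0.16 with DDR1i and RUNXi. With RUNXi ANXA1 (-0.47 ± 0.13), ANXA11 (-0.48 ± 0.11), SUGT1 (-0.63 ± 0.14) and COPS5 (-0.53 ± 0.14) were called lower. Over all 13548 genes, 334 were called with DDR1i and 549 with RUNXi in these comparisons. None was called between the inhibitors, with RUNXi against control or with collagen against control. AHNAK and MYH9 have long transcripts, and these comparisons are those with the length trend given above.

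The receptors differed widely in level. AGER (RAGE) and TLR4, the receptors of extracellular calprotectin and S100A4, did not exceed 3.54 and 2.53 CPM, while BSG (basigin), a receptor of S100A9, ranged from 794 to 1190 CPM. ANXA2 ranged from 2119 to 3210 CPM and CACYBP, the partner of S100A6, from 188 to 368.

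Other genes of the 1q21 span gave the local background. With 12 to 14 genes outside the S100 family tested in a comparison, none was called except SPRR1B, a cornified envelope precursor, which was lower with RUNXi against both collagen and control. The median log2 fold change of these neighbours was -0.27 with DDR1i and -0.17 with RUNXi against collagen, beside -0.28 and -0.53 for the members, whose choice used these comparisons. Without collagen replicate 4 the members' median was 0.02 with DDR1i and -0.22 with RUNXi. With the length trend removed it was -0.17 and -0.32, against -0.05 and -0.01 over all genes. Against control, the neighbours' median was -0.38 with DDR1i and 0.01 with RUNXi, beside 0.25 and -0.13 for the members. For collagen alone against control it was 0.15, beside 0.36 for the members.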

How the data were processed

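The authors deposited raw counts of reads per gene for 16 MCF10A RNA-seq libraries, aligned with STAR to GRCh37 (hg19). The counting tool, annotation and use of strand are not given in the sources used here. All columns were matched to libraries by their descriptions. Gene positions and lengths were read from a GENCODE release mapped to GRCh37 (23894 of 26473 distinct names matched, 1288 by older symbols), and upstream sequences from RefSeq (GRCh38.p14), which held all 10 members.

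edgeR 4.0.16 (in R 4.3.3) tested the counts, by a robust quasi-likelihood fit after filterByExpr and TMM scaling, with Benjamini-Hochberg adjustment over all genes, at an adjusted p threshold of 0.05. The fit of the inhibitors with collagen used 11 libraries, that of collagen against control 7, and that of the inhibitors against control 12, and collagen replicate 3 entered none of them. Correlations used log2(normalized CPM + 0.5). Alternatives were DESeq2 1.42.0, its size factors in edgeR, other filters, 1 fit of 4 groups, a replicate block, removal of a length trend (splines with 4 degrees of freedom, on log2 CPM with a prior count of 2), inclusion of collagen replicate 3, exclusion of control replicates 2 and 3, and leaving out each library. The biological coefficient of variation was 0.287 to 0.353.

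All 10 members are named, with list genes where called, other S100 genes above the filter and the 5 genes most like S100A14. Members and lists were chosen with earlier results of these data known. Same replicate numbers were not stated to pair samples. Of 24 same-number pairs of libraries 7 had deviations from the group mean correlated above 0.1, beside 4 of 72 pairs of different number. The median r was 0.07 for same-number pairs and -0.02 for the others. Replicate number entered only the fit with a replicate block. No pair of replicates agreed within sampling noise (lowest chi-square per degree of freedom 18.5).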

Additional observations from a re-analysis of the deposited data

Results flagged for a closer look

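Collagen replicate 4 stood far above the other libraries of its group for 3 members. Its gap to the next library, as a share of the whole range of the 4 libraries, was 0.877 for S100A2 (8396 against at most 5354 normalized CPM), 0.926 for S100A11 (1525 against at most 918) and 0.885 for S100A16 (1699 against at most 1246), each above Dixon's 95% limit. S100A7, at 0 to 2.60 CPM, was high in replicate 4 of 3 groups, with a share of 0.864 in control (90 counts), 0.861 with collagen (59 counts) and 0.890 with DDR1i (19 counts). Replicate 4 was also its highest library with RUNXi (23 counts), where the share did not pass the limit. Of the 40 groups of 4 values checked, 6 passed this limit, and chance gives about 2. The part of replicate 4 in these values was not tested.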

How the results depend on the processing

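The number of members called moved with the method. In collagen against control it went from 0 to 3 by DESeq2 and to 2 with no filter on low counts, while calls over all genes went from 0 to 415 of 13092 and 284 of 18059. For collagen with DDR1i against control it went from 0 to 1 by DESeq2, with the length trend removed and under the replicate block (S100A9 each time, adjusted p = 0.0203 under the block), and all calls went from 28 to 65, 19 and 116. For collagen with RUNXi against control it went from 1 to 2 under the replicate block (S100A9 added, adjusted p = 0.0473) and to 0 without control replicates 2 and 3, and all calls from 53 to 162 and 21. Against collagen alone, DDR1i went from 3 to 0 with collagen replicate 3 included, and RUNXi from 3 to 1 with it included and to 1 with the length trend removed, where all calls with RUNXi went from 549 to 198. Leaving out 1 library at a time gave 0 to 1 called members for RUNXi against control, 1 to 3 for DDR1i and 1 to 4 for RUNXi against collagen, and 0 in the other 3 comparisons. Without collagen replicate 4, both inhibitors against collagen had 1, S100A14, as did DDR1i without DDR1i replicate 2, 3 or 4 and RUNXi without RUNXi replicate 1, 2 or 4. Within groups r was 0.667 (adjusted permutation p = 0.153) for S100A11 with ANXA1 and 0.237 for S100A14 with S100A16, and with a pseudocount of 2 it was 0.497 (adjusted permutation p = 0.0477) for S100A7 with S100A8. No fold change past the threshold changed direction under the alternatives run. The replicate block gave 4 called members for each inhibitor against collagen, and 12 of the 16 libraries correlated best with those of their own number, a hint from the data and not the design.

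Low counts limit S100A7 in every comparison and S100A8 in part. The control libraries with the fewest counts, replicates 2 and 3, enter every comparison with control.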
